A study of Mus musculus with 32 samples.

Results

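Gene expression was compared between 3 arrays of ApcMin Bcl9/B9l DKO adenomas and the 6 arrays of ApcMin adenomas that were processed in the same batch, chosen by their labels. These are 9 of the 32 arrays of a mouse study of intestinal crypts and adenomas, measured on Illumina whole-genome bead arrays. Both groups are ApcMin/+ mice of 120 days on a C57BL/6J background, which carry 1 truncated copy of Apc, a tumour suppressor. In Bcl9/B9l DKO mice, floxed Bcl9 and Bcl9l (also called B9l) are deleted by villin.Cre, a recombinase driven in the intestinal epithelium, so that stroma, vessels and immune cells are not targeted. The labels give no villin.Cre for ApcMin adenomas. The authors back-crossed the floxed villin.Cre lines into C57BL/6 for a few generations, and how much donor chromosome remains is not given. Adenomas were excised one by one, and most samples mix RNA extracted more than once from the same mouse. Whether the arrays of a group stand for different mice is not in the labels, and the spread behind each p-value is that among these samples, which may be technical. Adenomas of 5 further arrays, ApcMin Pygo1/2 DKO (Pygo1 null, floxed Pygo2, villin.Cre), and crypts of wild-type Apc mice with the Bcl9/B9l deletion or with villin.Cre alone (3 arrays each) are used below to set the differences in context. These mice were also of 120 days. ApcMin quadruple knockout adenomas (Bcl9, B9l, Pygo1 and Pygo2) and wild-type crypts without villin.Cre, of the same age, enter only the array counts for Myo18b.

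In canonical Wnt signalling, β-catenin that escapes destruction by the Apc and Axin complex enters the nucleus and binds TCF factors at target genes. Bcl9 and its paralog B9l tether the chromatin reader Pygo to β-catenin, and together with their partners they form the Wnt enhanceosome. In the intestine this pathway maintains the stem cells at the crypt base, and adenomas of ApcMin mice arise from cells that have lost their remaining functional Apc copy.

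Promoters of the genes that differed are shown first for the letters of the TCF motif. The motif CTTTGAT was searched on both strands (ATCAAAG on the other) in RefSeq sequences of GRCm38.p6, from 250 bases before to 50 bases after each listed start, and no other motif was searched. It stood in the promoters of 12 of the 107 genes lower in DKO adenomas that had a sequence (11.2%) and of 2 of 38 higher genes (5.26%), against 277 of 8555 tested genes (3.24%). Counted by promoter, it was in 12 of 133 promoters of lower genes (9.02%) and 2 of 51 promoters of higher genes (3.92%), against 292 of 10925 promoters of tested genes (2.67%) and 1225 of all 32851 promoters (3.73%). A match is a description of these letters and not a binding site. The 4 promoters below, chosen after their values were seen, belong to the gene with the largest fall (Bpifb5), the Wnt target with the largest fall (Tnfrsf19), a defence gene (Reg3g) and a Wnt target that carries the motif but did not pass the test (Sp5). Capitals mark the motif, and each sequence runs 5′ to 3′ along its gene, Bpifb5 at chr2:154223492-154223791 on the plus strand, Tnfrsf19 at chr14:61037938-61038237 on the minus strand (1 of its 2 listed starts), Reg3g at chr6:78468825-78469124 on the minus strand and Sp5 at chr2:70474673-70474972 on the plus strand.
Bpifb5: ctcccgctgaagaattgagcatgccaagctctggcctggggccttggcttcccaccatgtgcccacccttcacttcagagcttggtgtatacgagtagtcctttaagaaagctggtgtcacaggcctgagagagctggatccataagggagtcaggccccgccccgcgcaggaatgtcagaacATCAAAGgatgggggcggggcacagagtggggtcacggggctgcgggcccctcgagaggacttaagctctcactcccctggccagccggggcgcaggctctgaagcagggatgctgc
Tnfrsf19: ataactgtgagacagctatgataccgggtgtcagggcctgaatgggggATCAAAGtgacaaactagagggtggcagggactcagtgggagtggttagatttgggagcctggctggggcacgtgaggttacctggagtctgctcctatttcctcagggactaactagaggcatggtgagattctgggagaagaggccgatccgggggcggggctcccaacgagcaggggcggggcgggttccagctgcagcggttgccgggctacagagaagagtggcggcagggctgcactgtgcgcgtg
Reg3g: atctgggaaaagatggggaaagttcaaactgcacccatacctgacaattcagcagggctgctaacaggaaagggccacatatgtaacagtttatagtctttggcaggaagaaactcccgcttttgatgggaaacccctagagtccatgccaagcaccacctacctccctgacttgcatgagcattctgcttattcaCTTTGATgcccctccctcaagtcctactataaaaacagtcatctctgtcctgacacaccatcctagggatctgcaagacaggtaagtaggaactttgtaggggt
Sp5: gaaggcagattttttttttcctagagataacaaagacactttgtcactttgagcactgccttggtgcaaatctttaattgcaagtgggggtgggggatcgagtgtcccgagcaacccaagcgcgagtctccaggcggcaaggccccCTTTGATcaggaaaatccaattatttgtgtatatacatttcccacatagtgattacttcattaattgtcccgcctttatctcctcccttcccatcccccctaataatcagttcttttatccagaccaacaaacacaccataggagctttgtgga
Counted from the start, the first base of the motif was at -67 in Bpifb5, -202 in Tnfrsf19, -54 in Reg3g and -104 in Sp5. In Bpifb5 and Tnfrsf19 it was read on the opposite strand. Of the 11 Wnt target genes with a listed promoter, 3 held the motif, Tnfrsf19, Sp5 and Mmp7. Axin2, Nkd1, Wif1, Prox1, Ascl2, Cd44, Ephb3 and Rnf43 had no match in this window.

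Differences between DKO and ApcMin adenomas ran mostly downwards, though less so from the deposited log2 values, whose counts are given at the end. Of 18443 probes, 296 (1.6%) passed an adjusted p of 0.01 in limma, 76 higher and 220 lower in DKO adenomas, and 288 of these differed at least 2-fold. Counting each named gene by its brightest probe, 49 of 10580 genes were higher (0.463%) and 144 were lower (1.36%). For all 193, every DKO array lay beyond every ApcMin array, which was so upwards for 5.62% and downwards for 7.23% of all named genes. The counts in the lists below are to be read beside these shares. A dimmer probe of the same gene did not pass for Cpa3, Cma1, Cma2, Ltf, Nkd1, Prox1, Spock2, Cd3e, Ifitm1, Il18 and Il1rn, which are called below by their brightest probe. Another 47 called probes are unnamed here, and the median difference over all probes was 0.04 on the log2 scale. In the 9 arrays, mean intensity ran from 307 to 434, with between 14224 and 15972 probes detected. The first principal component (36.2% of the variance) put the DKO arrays at -64.4 to -41.9 and the ApcMin arrays at 8.63 to 36.8, and the second (21.7%) put DKO adenoma 1 at 48.98, against -37.1 and -33.2 for DKO adenomas 2 and 3.

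**Figure D1:**
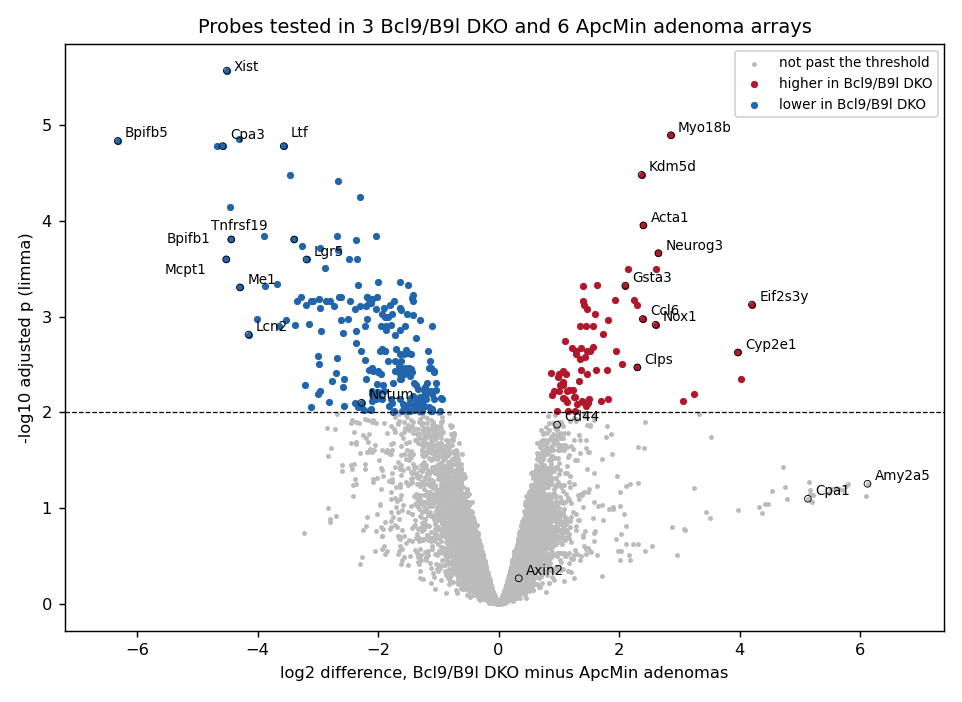
Each point is 1 of the 18443 probes, with the log2 difference of Bcl9/B9l DKO minus ApcMin adenomas across and -log10 of the adjusted p from limma upwards, and the dashed line is an adjusted p of 0.01. Of the probes past it, 220 were lower (blue) and 76 higher (red) in DKO adenomas, while pancreatic enzyme genes such as Amy2a5 had large differences that did not pass.

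The arrays differed in 3 further ways that bear on every count. The first is pancreatic RNA. Of 39 listed acinar genes, which encode the digestive enzymes of the pancreas and their regulators, 33 were measured, and 18 of them were detected in no ApcMin adenoma. These 18 stood above the ApcMin mean by a median of 9.32 on the log2 scale in DKO adenoma 1 and of 4.88 in DKO adenoma 3. In DKO adenoma 2 the median excess was 0.01, and 16 of the 18 were within 0.5 of the ApcMin mean. DKO adenomas 1 and 3 thus carried acinar RNA, and DKO adenoma 2 carried little or none by these genes. With DKO adenomas 1 and 3 left out, 25 probes passed, but that fit has 1 DKO array and takes its spread from ApcMin arrays alone, so a call lost in it says nothing about the gene. The level in DKO adenoma 2 is therefore given below for the main groups. The trypsinogen Try4 was at 14.26, 4.37 and 11.57 in DKO adenomas 1, 2 and 3, against 4.39 to 4.44 (median 4.42) in ApcMin adenomas. The elastase Cela2a was at 14.71, 4.63 and 13.86 in DKO adenomas, against 4.50 to 6.83 (median 4.62) in ApcMin adenomas, and the amylase Amy2a5 at 14.63, 5.76 and 14.52 in DKO adenomas, against 4.75 to 7.66 (median 5.09). In both genes the highest ApcMin array was ApcMin 7. The acinar transcription factor Ptf1a was detected in DKO adenoma 1 only, at 8.39, against 4.45 to 4.62 in ApcMin adenomas. Summed over the list, these genes held 0.341 to 3.14% of an array's total signal in DKO adenomas and 0.402 to 0.502% in ApcMin adenomas. Of the 33 genes, 10 were detected in every ApcMin array, and the brightest weigh most in these sums. Reg1, Zg16 (also in the goblet cell list) and Spink1 had mean levels of 14.5, 14.4 and 13.6 over the 9 arrays. Reg1 was at 14.82 in villin.Cre crypts too, so the shares in ApcMin adenomas do not measure pancreatic RNA. Such shares, here and below, are of intensity before background correction, so that undetected genes add background to them.

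**Figure D2:**
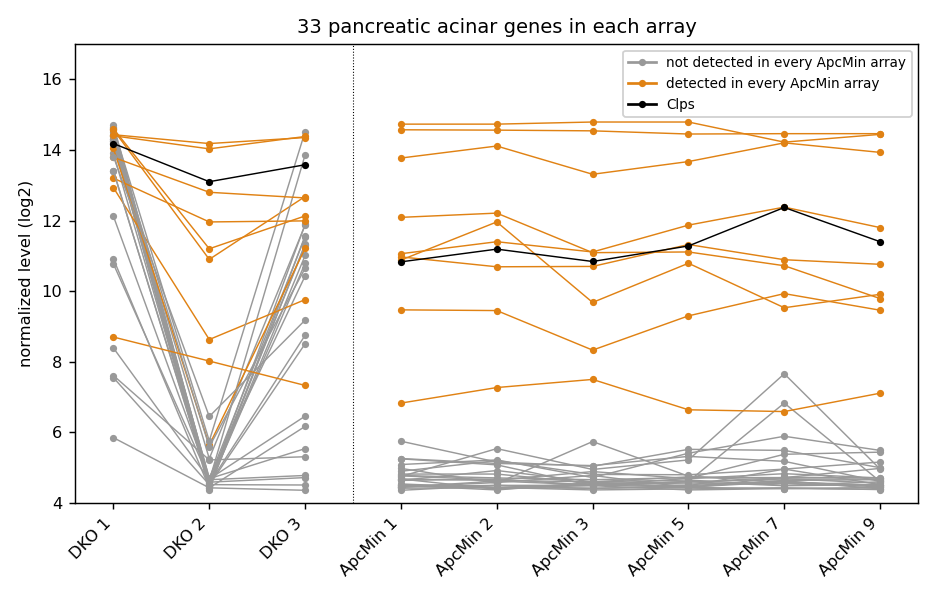
Normalized log2 levels of the 33 measured acinar genes (1 line each) in DKO adenomas 1 to 3 on the left and in 6 ApcMin adenomas on the right. Genes not detected in every ApcMin adenoma (grey) are mostly high in DKO adenomas 1 and 3 and low in DKO adenoma 2, genes detected in every ApcMin adenoma are orange, and Clps (black) is above all ApcMin adenomas in each of the 3.

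Of this list 1 gene passed the test, Clps, the colipase that anchors pancreatic lipase to fat droplets. It was at 14.18, 13.10 and 13.58 in DKO adenomas, against 10.83 to 12.37 (median 11.23) in ApcMin adenomas, a difference of 2.3 ± 0.34 (SE) with an adjusted p of 0.00339 in limma. Unlike the enzymes above it was also high in DKO adenoma 2 and detected in every ApcMin array, and its call was lost without DKO adenoma 1 or 3 (adjusted p up to 0.0184 in limma). Rnase1, the pancreatic ribonuclease, was at 14.60, 11.20 and 12.13 in DKO adenomas, against 8.33 to 9.93 (median 9.46) in ApcMin adenomas, and just missed the threshold (adjusted p = 0.0103 in limma). Pnliprp1, a lipase-related protein, went the other way in DKO adenoma 2, which was at 5.64 beside 14.04 and 11.21 in DKO adenomas 1 and 3, against 9.79 to 12.21 (median 11.10) in ApcMin adenomas.

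The second feature is sex. Xist, the RNA that coats the inactive X chromosome of females, was detected in no DKO adenoma and in all 6 ApcMin adenomas, at 4.39 to 4.48 in DKO adenomas against 8.54 to 9.42. It was at least 9.98-fold lower in DKO adenomas (adjusted p = 2.72e-06 in limma). Here and below, "at least" stands where no array of the lower group detected a gene. The fold is then taken against the mean of, for each array, the gene's value or the weakest detected signal on that array, whichever is higher. The Y-linked Eif2s3y and Kdm5d were detected in all 3 DKO and in none of the 6 ApcMin adenomas, at least 8.24-fold and 2.69-fold higher (adjusted p = 0.000749 and 3.32e-05 in limma). Sex, villin.Cre and the deletions therefore cannot be told apart by these 9 arrays.

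The third is villin.Cre itself. Myo18b, a myosin of muscle that was listed as a mark of this transgene with earlier results of these arrays known, and so is not independent evidence, was at 7.30, 7.73 and 7.67 in DKO adenomas, against 4.57 to 4.96 (median 4.71) in ApcMin adenomas, and at least 3.94-fold higher (adjusted p = 1.28e-05 in limma). Over all groups of the series it was detected in every array that carries villin.Cre, 3 of 3 Bcl9/B9l DKO, 5 of 5 Pygo1/2 DKO and 3 of 3 quadruple knockout adenomas, and 3 of 3 crypts each of Bcl9/B9l DKO, Pygo1/2 DKO and villin.Cre alone. It was detected in 0 of 9 ApcMin adenomas and 0 of 3 wild-type crypts without the recombinase. Between Bcl9/B9l DKO and Pygo1/2 DKO adenomas, which both carry villin.Cre, Myo18b differed by 0.44 ± 0.16 (SE, adjusted p = 0.204 in limma). Ctcfl, a zinc finger paralog of Ctcf and the other measured gene of that list, did not follow it, at 6.64, 5.55 and 6.59 in DKO adenomas, against 5.98 to 6.99 (median 6.34) in ApcMin adenomas, where all 6 arrays detected it (-0.15 ± 0.30 SE, adjusted p = 0.828 in limma). In crypts Ctcfl differed by -2.24 between DKO and villin.Cre (adjusted p = 0.67 in limma).

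The targeted genes were then read in every array. Bcl9 was at 7.63, 8.37 and 8.27 in DKO adenomas, against 7.57 to 8.50 (median 7.92) in ApcMin adenomas, a difference of 0.13 ± 0.24 (SE, adjusted p = 0.811 in limma). Bcl9l was at 8.45, 8.14 and 7.78 in DKO adenomas, against 7.93 to 9.28 (median 8.45), a difference of -0.33 ± 0.28 (SE, adjusted p = 0.543 in limma). The groups overlapped for both. The sources used here do not place these probes relative to the deleted exons, and cells outside the epithelium are not targeted, so they do not check the labels. In crypts the differences were -0.14 for Bcl9 and 0.19 for Bcl9l (DKO minus villin.Cre, adjusted p = 1.0 for both in limma).

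Wnt target genes fell in part. Of 19 measured members of the list, 7 were lower in DKO adenomas and none was higher, with a median difference of -0.26 against 0.02 over all named genes. The 7 were Tnfrsf19 (also called Troy), Lgr5, Nkd1, Prox1, Dkk3, Wif1 and Notum. Lgr5, the R-spondin receptor that marks crypt base stem cells, was at 4.66, 5.53 and 5.83 in DKO adenomas, against 7.84 to 9.07 (median 8.49) in ApcMin adenomas. It fell by 3.19 ± 0.30 on the log2 scale (SE, adjusted p = 0.000254 in limma). Tnfrsf19, a receptor of the tumour necrosis factor family, was at 4.48, 5.31 and 5.07 in DKO adenomas, against 7.48 to 8.77 (median 8.48), and at least 6.58-fold lower (adjusted p = 0.000157 in limma). Nkd1, an inhibitor that binds Dishevelled, was at 6.55, 7.65 and 7.55 in DKO adenomas, against 9.34 to 10.54 (median 10.32), 7.26-fold lower (adjusted p = 0.000683 in limma). DKO adenoma 1 was the lowest of the 3 for each of these genes, and no array of one group reached the other. Prox1, a homeobox factor, was 10.1-fold lower, and the secreted proteins Wif1, Notum and Dkk3 were 7.86-fold, 4.83-fold and 3.74-fold lower ( adjusted p from 0.000683 to 0.00793 in limma). Prox1 also marks lymphatic endothelium and was the 1 called gene of 15 endothelial genes, which together held 0.0261 to 0.0312% of an array's signal in DKO adenomas and 0.031 to 0.0409% in ApcMin adenomas. The call of Wif1 was lost without any one DKO array, with an adjusted p up to 0.0165 in limma, and that of Notum without any one array other than ApcMin 7 (up to 0.0252).

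The other 12 Wnt targets did not pass. Axin2, the scaffold whose induction by β-catenin feeds back on the pathway, was at 9.65, 10.61 and 10.35 in DKO adenomas, against 9.35 to 10.58 (median 9.78) in ApcMin adenomas (0.33 ± 0.28 SE, adjusted p = 0.538 in limma). Cd44, a hyaluronan receptor, was at 11.40, 11.42 and 11.33 in DKO adenomas, above the 10.04 to 10.83 (median 10.40) of ApcMin adenomas, with a difference of 0.97 ± 0.18 (SE) that missed the threshold (adjusted p = 0.0134 in limma). Ascl2, a transcription factor of crypt base stem cells, differed by 0.92 ± 0.29 (adjusted p = 0.101 in limma), Myc by 0.35 (0.187), Sp5 by -0.54 (0.219), Sox9 by 0.29 (0.461) and Ccnd1 by 0.24 (0.397). Within 1 list, Lgr5 and Nkd1 were thus lower while Axin2 overlapped and Cd44 lay above. In DKO adenoma 2, which carried little acinar RNA, Lgr5, Tnfrsf19 and Nkd1 were below every ApcMin array.

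**Figure D3:**
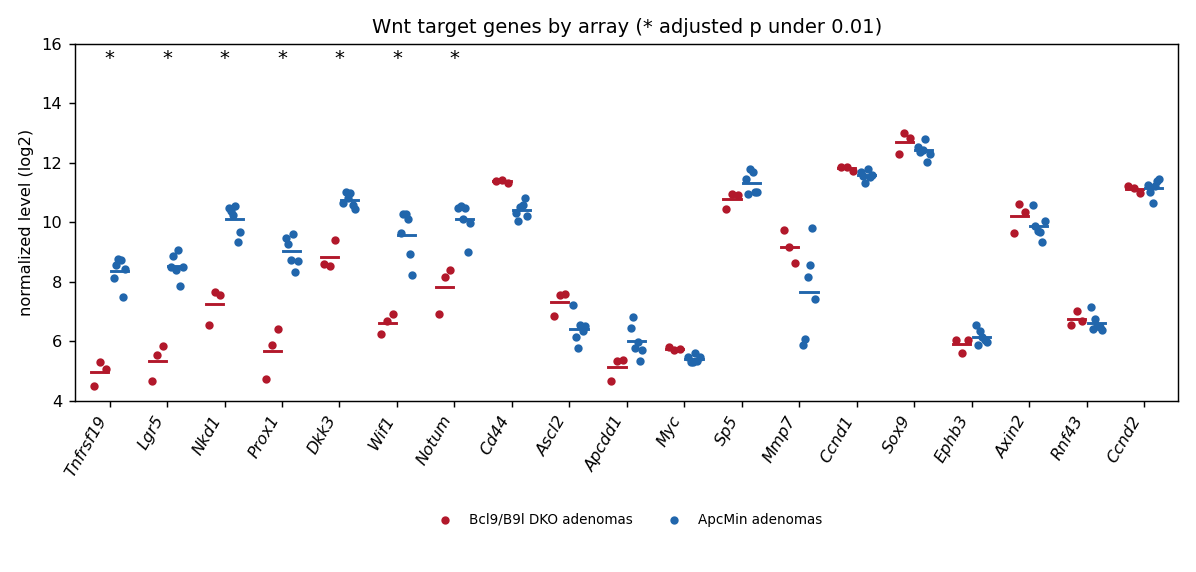
Normalized log2 levels of the 19 measured Wnt target genes in 3 Bcl9/B9l DKO (red, left) and 6 ApcMin adenomas (blue, right), 1 point per array and a bar at each mean. The 7 genes with an asterisk passed an adjusted p of 0.01, all lower in DKO adenomas, while the groups overlap for Axin2, Sp5, Sox9 and Ccnd1 and the DKO points lie above for Cd44.

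Outside the list, and named after their values were seen, the ligand Wnt6 and the Wnt receptor Fzd10 also fell and were detected in no DKO adenoma, at least 2.82-fold and 2.97-fold lower (adjusted p = 0.000826 and 0.00346 in limma). The call of Fzd10 was lost without any one DKO array (adjusted p up to 0.0211 in limma), while Wnt6 kept its call without each array. None of the 16 measured enhanceosome components and partners passed (median -0.08). Of 19 crypt base stem cell genes, 2 were lower, Lgr5 and Tnfrsf19, which the Wnt list also holds, and the list's median was 0.33. Olfm4, an abundant secreted glycoprotein of crypt base cells, was at 10.09, 10.65 and 9.96 in DKO adenomas, all above the 6.34 to 9.16 (median 8.56) of ApcMin adenomas, with a difference of 2.11 ± 0.56 (SE, adjusted p = 0.0581 in limma). Hopx lay above all ApcMin arrays too (0.68 ± 0.20, 0.086). None of 21 proliferation genes passed (median 0.21), with Top2a, the topoisomerase of dividing cells, at 9.34 to 9.78 in DKO adenomas, against 8.71 to 9.90 in ApcMin adenomas. None of 12 Notch pathway genes passed.

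Mast cell genes were lower as a group. Mast cells of the mucosa store proteases and histamine in granules and are armed by IgE receptors. Of 12 measured genes, 8 were lower and none higher, with a list median of -2.16, while 1.36% of all named genes were lower. Cpa3, the mast cell carboxypeptidase, was at 5.32, 4.88 and 4.70 in DKO adenomas, against 8.86 to 10.34 (median 9.51) in ApcMin adenomas, and at least 15.1-fold lower (adjusted p = 1.67e-05 in limma). The chymase Mcpt1 was at 6.83, 5.74 and 5.4 in DKO adenomas, against 9.46 to 11.50 (median 10.52), 22.9-fold lower (adjusted p = 0.000253 in limma). Cpa3, the tryptase Tpsb2, the chymase Cma1 and Fcer1a, the IgE-binding chain of the receptor, were detected in no DKO adenoma and in all 6 ApcMin adenomas. Fcer1a was at least 7.71-fold, Tpsb2 at least 3.69-fold and Cma1 at least 2.84-fold lower, and Cma2, Mcpt4 and the transcription factor Gata2 fell by 3.53, 1.76 and 1.62 on the log2 scale (adjusted p from 0.00082 to 0.00848 for these 6 in limma). The calls of Cma1, Mcpt4 and Gata2 were lost without any one DKO array (adjusted p up to 0.0479, 0.0313 and 0.0164 in limma), that of Mcpt4 also without ApcMin 7 or 9, and that of Cma1 also without ApcMin 1, 3, 7 or 9.

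The other 4 members did not pass, the tryptase Tpsab1 with a difference of -0.88 ± 0.36 (SE). Kit, the stem cell factor receptor, which pacemaker cells of the gut wall also carry, was at 8.59, 9.32 and 9.25 in DKO adenomas, against 8.22 to 9.94 (median 8.82) in ApcMin adenomas. Hdc, which makes histamine, differed by 0.0 ± 0.22 (SE) and the serotonin transporter Slc6a4 by -0.53 ± 0.38. Summed over the list, mast cell genes held 0.00795 to 0.0105% of an array's signal in DKO adenomas and 0.0244 to 0.0514% in ApcMin adenomas, background included. In such bulk samples, fewer cells of a type and less RNA per cell cannot be told apart. DKO adenoma 2 was as low as the others, with Mcpt1 at 5.74 against an ApcMin mean of 10.51 and Cma2 at 6.48 against 9.97.

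Genes of epithelial defence and the acute phase were lower in part, and 1 of them, Bpifb5, had the largest fall of the named genes. Of 27 measured, 7 were lower and 1 higher, with a median of -1.19, while 1.36% of all named genes were lower and 0.463% higher. Bpifb5, a secreted protein of the BPI-fold family, was at 4.43, 4.51 and 4.52 in DKO adenomas, in none of which it was detected, against 9.94 to 12.07 (median 10.68) in ApcMin adenomas, and was at least 36.3-fold lower (adjusted p = 1.47e-05 in limma). Its relative Bpifb1 was at 4.83, 5.91 and 6.49 in DKO adenomas, against 9.27 to 10.65 (median 10.38), 21.7-fold lower (adjusted p = 0.000157 in limma). Ltf, the iron-binding lactoferrin, was at 7.04, 6.74 and 6.85 in DKO adenomas, against 10.01 to 10.99 (median 10.49), 11.8-fold lower (adjusted p = 1.67e-05 in limma). In all 3 genes the DKO arrays lay far below the lowest ApcMin array.

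The other called members were Lcn2, Serpina3n, Lrg1 and Reg3g. Lcn2, which withholds iron from bacteria by binding their siderophores, was at 5.44, 7.04 and 6.79 in DKO adenomas, against 9.09 to 11.57 (median 10.71) in ApcMin adenomas, 17.7-fold lower (adjusted p = 0.00154 in limma). The protease inhibitor Serpina3n fell by 4.00 ± 0.49 and the secreted glycoprotein Lrg1 by 3.10 ± 0.54 on the log2 scale (SE, adjusted p = 0.00106 and 0.00885 in limma). Reg3g, a bactericidal lectin of the epithelium whose promoter is shown above, was at 10.19, 8.93 and 9.16 in DKO adenomas, against 11.33 to 12.69 (median 11.92), 6.02-fold lower (adjusted p = 0.00147 in limma). Its relative Reg3b differed by -1.66 ± 0.31 at its brightest probe (SE, adjusted p = 0.0123 in limma), while another of its probes passed. The calls of Reg3g and Lrg1 were not stable, since that of Reg3g was lost without DKO adenoma 2 or 3 (adjusted p up to 0.0122 in limma) and that of Lrg1 without any of 8 arrays (up to 0.0546). The 1 member that rose was Nox1, the superoxide-generating oxidase of intestinal epithelium, at 8.45, 7.22 and 6.77 in DKO adenomas and detected in no ApcMin adenoma (4.62 to 5.35), at least 3.71-fold higher (adjusted p = 0.00122 in limma).

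**Figure D4:**
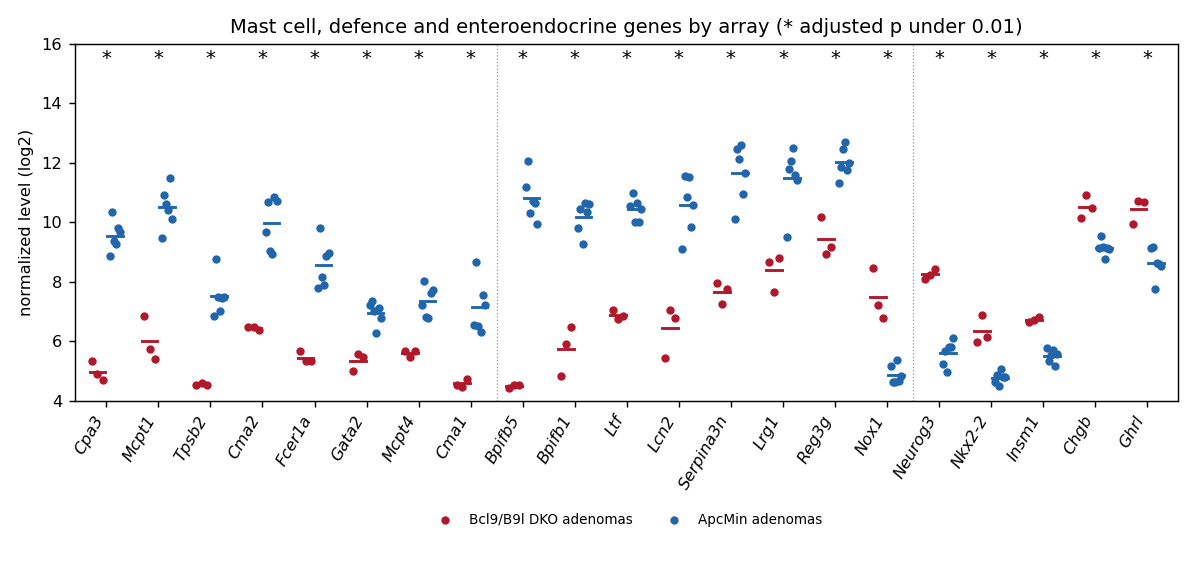
Normalized log2 levels of called mast cell (left), defence (middle) and enteroendocrine genes (right) in 3 Bcl9/B9l DKO (red) and 6 ApcMin adenomas (blue), 1 point per array with a bar at each mean. The 8 mast cell genes and 7 of the 8 defence genes are lower in DKO adenomas, and Nox1 and the 5 enteroendocrine genes are higher.

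Lymphocyte and plasma cell genes were lower in part. Of 16 measured, 5 were lower and none higher, with a median of -1.38, and together they held 0.0354 to 0.0416% of an array's signal in DKO adenomas and 0.0457 to 0.0624% in ApcMin adenomas. Ccl5, a chemokine made by T cells, was at 7.24, 8.50 and 7.78 in DKO adenomas, against 9.77 to 10.87 (median 10.15) in ApcMin adenomas, 5.14-fold lower (adjusted p = 0.00143 in limma). Cd3g and Cd3e, chains of the T cell receptor complex, fell by 2.22 ± 0.32 and 1.81 ± 0.31, the cytotoxic granule gene Nkg7 by 2.10 ± 0.35 and the plasma cell gene Mzb1 by 2.12 ± 0.37 on the log2 scale (SE, adjusted p from 0.00281 to 0.0094 in limma). The call of Ccl5 was lost without DKO adenoma 3 (adjusted p = 0.0107 in limma), that of Cd3g without DKO adenoma 1 or 3, and those of Nkg7, Cd3e and Mzb1 without any of 6, 7 and 7 arrays (up to 0.0564). In DKO adenoma 2, Ccl5 was at 8.50 against an ApcMin mean of 10.2, Cd3g at 5.97 against 7.71 and Mzb1 at 7.71 against 10.24, each below every ApcMin array. Foxp3, of regulatory T cells, and Cd8b1, of cytotoxic T cells, overlapped at their brightest probes, with differences of -0.05 and 0.01, while a dimmer probe of Cd8b1 differed by -0.98 (adjusted p = 0.0339 in limma). The brightest Cd8b1 probe was at 11.71 in both adenoma groups, and at 11.58 in DKO and 11.51 in villin.Cre crypts. It was the only member at 10 or more in each DKO adenoma, and so weighs heavily in the shares above. Whether this probe reads T cells was not tested. Named after their values were seen, the γ-chain segment Trgv4 and the inhibitory receptor Lag3 were detected in no DKO adenoma, at least 1.90-fold and 1.61-fold lower (adjusted p = 0.00123 and 0.00356 in limma). The call of Lag3 was lost without any one DKO array (adjusted p up to 0.0202 in limma), while Trgv4 kept its call without each array.

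By its brightest probe no interferon response gene passed, although all 20 measured had negative differences, with a median of -0.82. In 9 of them the DKO arrays lay below every ApcMin array, as in 7.23% of all named genes. Isg15, a ubiquitin-like protein induced by interferon, differed by -1.54 ± 0.28 and Usp18, which removes it, by -2.22 ± 0.41 (SE, adjusted p = 0.0107 and 0.0117 in limma). A dimmer probe of Oasl2, an antiviral protein of the oligoadenylate synthetase family, was called lower (-1.10, adjusted p = 0.00916 in limma). Outside the list and named after their values were seen, Ifitm3 and Ifitm1, membrane proteins that restrict viruses, fell by 1.74 ± 0.20 and 1.62 ± 0.23 (SE, adjusted p = 0.000695 and 0.00291 in limma). None of 9 MHC class II genes passed (median -0.94), Cd74, their invariant chain, with a difference of -0.95 ± 0.28 (adjusted p = 0.0824 in limma).

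Genes of absorptive cells were lower where they passed. Of 19 fat absorption and apolipoprotein genes, 3 fell and none rose (median -0.93), and of 22 brush border and digestive genes, 1 fell and none rose (median -0.80). Apoa4, an apolipoprotein of chylomicrons, was at 12.66, 13.66 and 13.22 in DKO adenomas, against 14.28 to 14.52 (median 14.41) in ApcMin adenomas, 2.33-fold lower (adjusted p = 0.00656 in limma). Mttp, which loads lipid onto apolipoprotein B, and Creb3l3, a transcription factor of lipid metabolism, were 2.15-fold and 2.58-fold lower (adjusted p = 0.00636 and 0.00524 in limma). The brush border gene that fell was Treh, the trehalase, 2.75-fold lower (adjusted p = 0.00243 in limma). The calls of Mttp and Apoa4 were each lost without any of 8 arrays, and that of Creb3l3 without any of 6 (adjusted p up to 0.0382 in limma). That of Treh was lost without DKO adenoma 1 or 2 (up to 0.0151). Lactase (Lct) and sucrase-isomaltase (Sis) differed by -2.59 ± 0.64 and -1.72 ± 0.50 (SE, adjusted p = 0.0413 and 0.0773 in limma), with all DKO arrays below all ApcMin arrays. A dimmer probe of Sis was called lower (-2.28, adjusted p = 0.00885 in limma). The structural gene Vil1, whose promoter drives villin.Cre, overlapped (-0.29 ± 0.20).

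Some enteroendocrine genes rose. These rare hormone-secreting cells of the epithelium are specified by Neurog3 and store their hormones with chromogranins. Of 10 transcription factor genes, 3 were higher and none lower (median 0.70). Neurog3 was at 8.08, 8.23 and 8.42 in DKO adenomas, against 4.96 to 6.09 (median 5.73) in ApcMin adenomas, 6.29-fold higher (adjusted p = 0.000218 in limma). The factors Nkx2-2 and Insm1 followed, Nkx2-2 at least 1.68-fold higher and detected in no ApcMin adenoma (adjusted p = 0.0021 in limma), and Insm1 at 6.65 to 6.83 in DKO adenomas against 5.18 to 5.76, 2.33-fold higher (adjusted p = 0.00214 in limma). Of 16 hormone and granule genes, 2 were higher and none lower (median 0.58). Chgb, chromogranin B, was at 10.14, 10.90 and 10.49 in DKO adenomas, against 8.77 to 9.53 (median 9.14), and Ghrl, the hormone ghrelin, was at 9.95, 10.71 and 10.67, against 7.74 to 9.18 (median 8.61), 2.59-fold and 3.52-fold higher (adjusted p = 0.00363 and 0.0073 in limma). Chromogranin A (Chga) missed the threshold at its brightest probe (1.28 ± 0.24 SE, adjusted p = 0.0124 in limma) and passed at both of its dimmer ones. The rise did not extend to every hormone, since somatostatin (Sst) differed by -1.08, glucagon (Gcg) by -1.28 and Gip by -0.62, none of them called. The calls of Insm1, Chgb and Ghrl were lost without DKO adenoma 2 or 3, those of Chgb and Ghrl also without some ApcMin arrays (adjusted p up to 0.0437 in limma). In DKO adenoma 2, Neurog3 was at 8.23 against an ApcMin mean of 5.59, Nkx2-2 at 6.88 against 4.77 and Ghrl at 10.71 against 8.63, each above every ApcMin array.

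Among the other secretory cells, goblet cell genes split. Of 20 measured, Ccl6 and Gcnt3 were higher and Retnlb lower (median -0.10). Ccl6, a chemokine, was at 8.25, 9.62 and 9.32 in DKO adenomas, against 6.18 to 7.01 (median 6.72) in ApcMin adenomas, 5.26-fold higher (adjusted p = 0.00106 in limma). Gcnt3, a glycosyltransferase of mucin glycans, was 1.86-fold higher, and Retnlb, a secreted goblet cell protein, 3.05-fold lower (adjusted p = 0.00654 and 0.00977 in limma). The call of Gcnt3 was lost without any one array other than ApcMin 5, and that of Retnlb without any one of the 9. Muc2, the main gel-forming mucin of the gut, overlapped (-0.18 ± 0.22). Clca1, another goblet cell gene, missed the threshold at its brightest probe (-1.51, adjusted p = 0.0112 in limma). Its other probe was called lower (-1.56, adjusted p = 0.00848 in limma). None of 5 α-defensins of Paneth cells passed (median 1.27), and Defa26 was at 12.47, 13.81 and 12.83 in DKO adenomas, against 9.16 to 12.27 (median 10.86), with an adjusted p of 0.0539 in limma. Defensin genes are near-identical copies whose probes can share targets. Of 12 other Paneth cell genes, 1 was lower, Fgfrl1 (-1.42 ± 0.23 SE, adjusted p = 0.00669 in limma), and none higher (median 0.11). Of these 12, 6 had positive and 6 negative differences. Of 9 tuft cell genes, 1 was lower, Avil (-1.075 ± 0.181 SE, adjusted p = 0.0073 in limma), and none higher (median -0.11). Each of these 2 calls was lost without any of 7 arrays (adjusted p up to 0.0315 in limma).

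The remaining large rises fell in several lists. Cyp2e1, a cytochrome P450 of drug and alcohol metabolism, was at 6.79, 9.91 and 9.63 in DKO adenomas and detected in no ApcMin adenoma (4.48 to 5.18), at least 9.11-fold higher (adjusted p = 0.00237 in limma), and its call was lost without DKO adenoma 2 or 3 (adjusted p up to 0.0165 in limma). It is listed among drug metabolism and among liver genes. The glutathione transferase Gsta3 was at 11.50, 11.28 and 11.27 in DKO adenomas, against 8.81 to 9.67 (median 9.23), 4.30-fold higher (adjusted p = 0.000476 in limma). With Cyp2c55, another P450, they were the 3 of 28 drug metabolism genes that rose (median -0.14), and none fell. Acta1, the actin of skeletal muscle, was 5.29-fold and the leukocyte integrin Itgad 6.08-fold higher (adjusted p = 0.000112 and 0.000319 in limma). Itgad was the only called gene of 18 myeloid genes (median -0.47), which together held 0.0266 to 0.0357% of an array's signal in DKO adenomas and 0.0385 to 0.0476% in ApcMin adenomas, and Acta1 the only one of 11 smooth muscle genes. The ceramidase Acer1 and the agmatinase Agmat were 4.14-fold and 3.84-fold higher (adjusted p = 0.00316 and 0.000673 in limma). Aim2, a sensor of cytosolic DNA, was at 7.01 to 7.14 in DKO adenomas and detected in no ApcMin adenoma, at least 2.79-fold higher (adjusted p = 0.000319 in limma). Of the cytokines, Il1rn, the natural antagonist of the interleukin-1 receptor, rose by 1.47, while Il18 and Il33 fell by 1.51 and 1.58 on the log2 scale (adjusted p from 0.00388 to 0.0082 in limma), calls that were each lost without any of 5 to 8 arrays.

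The remaining large falls included Me1, the malic enzyme that supplies NADPH for lipid synthesis, which was at 4.64, 4.51 and 4.45 in DKO adenomas, all undetected, against 7.76 to 10.06 (median 9.02) in ApcMin adenomas, and at least 9.18-fold lower (adjusted p = 0.000496 in limma). It was the only called gene of 19 lipogenesis and cholesterol synthesis genes, whose median was 0.08. The homeobox gene Gbx2 and the proteoglycan gene Spock2 were detected in no DKO adenoma, at least 5.81-fold and 6.27-fold lower, and the calcium-binding protein gene Tesc and Sbspon were 11.0-fold and 14.9-fold lower (adjusted p from 3.32e-05 to 0.00124 for these 4 in limma). Timp1, an inhibitor of matrix metalloproteinases, and Plat, the tissue plasminogen activator, fell by 1.93 and 1.98 (adjusted p = 0.00216 and 0.00229 in limma), the 2 called genes of 18 in their list. No gene was called among 23 fibroblast and matrix, 18 glycolysis, 19 junction, 15 immediate early or 15 histone H2A genes.

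Genes near the targeted loci were counted because a floxed allele can carry linked chromosome of the strain it was made in. Within 10 Mb of Bcl9l, 10 of 107 tested genes were called (9.35%), all lower, against 47 higher and 131 lower of 10187 genes outside the windows around Bcl9, Bcl9l and Apc (1.75%). Near Bcl9 it was 4 of 204 (1.96%) and near Apc 1 of 82 (1.22%). The genes near Bcl9l, named after their values were seen, include Treh, Tmem25, Cd3g, Cd3e and Jaml at 0.161, 0.282, 0.458, 0.487 and 0.567 Mb, and Apoa4, Cadm1, Il18, Srpr and St3gal4 farther out. Several therefore stand in the lists above, and the part of linkage in their values was not tested. Tmem25, a membrane protein of the immunoglobulin superfamily, was at 4.36, 4.4 and 4.38 in DKO adenomas, all undetected, against 6.49 to 7.60 (median 6.99) in ApcMin adenomas, and at least 2.68-fold lower (adjusted p = 0.0002 in limma). Jaml, an adhesion molecule of leukocytes and epithelium, was at 6.99, 7.24 and 7.03 in DKO adenomas, against 9.22 to 10.33 (median 9.81), 6.38-fold lower (adjusted p = 0.000144 in limma).

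Normal crypts asked whether the same deletion changes expression where Apc is intact. Of 15750 probes, 6 passed an adjusted p of 0.05 in limma (0.0381%), all lower in DKO crypts than in villin.Cre crypts, and 3 named genes were lower (0.033%), Tmem25, Me1 and Jaml, and none higher. Tmem25 was at 4.34, 4.36 and 4.37 in DKO crypts, all undetected, against 8.91, 8.64 and 8.55 in villin.Cre crypts, at least 8.73-fold lower (adjusted p = 5.63e-05 in limma). Me1 was at 4.57, 4.58 and 4.80 in DKO crypts, against 7.36, 7.25 and 7.95, at least 3.86-fold lower (adjusted p = 0.00269 in limma), and Jaml at 5.42, 5.93 and 5.48 in DKO crypts, against 9.30, 8.82 and 9.15 (adjusted p = 0.000831 in limma). All 3 were also lower in DKO adenomas. Tmem25 and Jaml lie 0.282 and 0.567 Mb from the floxed Bcl9l. Me1 is on the same chromosome but far outside the 10 Mb window, at 86581363 to 86695914 against 44482738 to 44511906 for Bcl9l. The part of linkage in these crypt differences was not tested. Lgr5 differed by -0.70 in crypts (adjusted p = 0.455 in limma), and whether this differs from its change in adenomas was not tested.

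Pygo1/2 DKO adenomas carry villin.Cre but keep Bcl9 and B9l, so they set the partner deletion beside the Pygo deletion. Against their 5 arrays, 207 of 19288 probes were called in Bcl9/B9l DKO adenomas (1.07%), 56 higher and 151 lower. Counted by named gene, 41 of 10924 were higher (0.375%) and 107 were lower (0.979%). The same 3 DKO arrays enter both comparisons, so the values are given side by side only. Of the Wnt targets 6 of 19 were lower (median -0.48), of the mast cell genes 5 of 12 (median -1.80), and of the defence genes 7 of 27 were lower and 1 higher (median -0.83). Lgr5 differed by -3.13 ± 0.34 from Pygo1/2 DKO adenomas and by -3.19 ± 0.30 from ApcMin adenomas, and Bpifb5 by -6.68 ± 0.44 and -6.32 ± 0.38 (SE). Ccl5 differed by -0.61 ± 0.37 from Pygo1/2 DKO adenomas, which did not pass, and by -2.36 ± 0.30 from ApcMin adenomas (SE). No lymphocyte gene (median -0.23) and no fat absorption gene (median -0.54) was called against Pygo1/2 DKO adenomas. Xist was detected in all 5 Pygo1/2 DKO adenomas and Eif2s3y and Kdm5d in none, so sex cannot be told apart from the genotype here either.

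**Figure D5:**
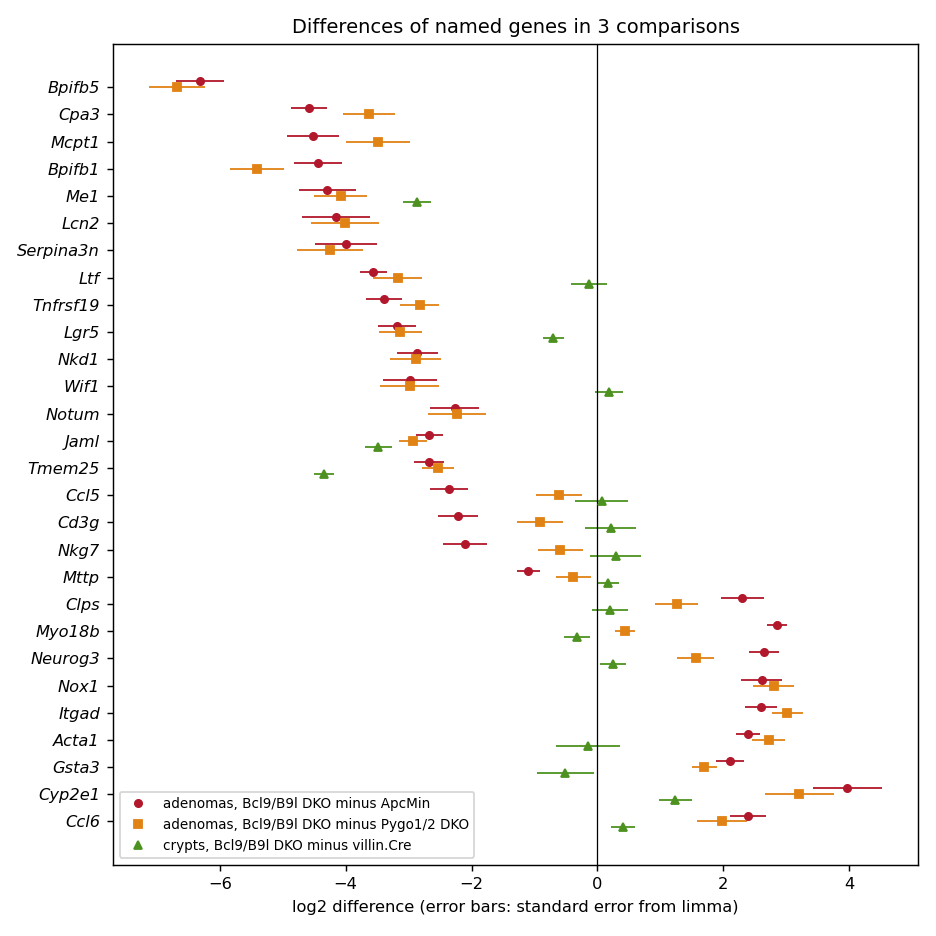
Log2 differences with standard errors from limma for named genes, as Bcl9/B9l DKO minus ApcMin adenomas (red circles), minus Pygo1/2 DKO adenomas (orange squares) and, in crypts, minus villin.Cre crypts (green triangles, where measured). Lgr5 and Bpifb5 are similarly low against both adenoma groups, Ccl5 is near 0 in crypts, and Tmem25, Me1 and Jaml are low in all 3 comparisons. Tmem25 and Jaml lie within 10 Mb of the floxed Bcl9l.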

How the data were processed

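RNA of 32 mouse crypt and adenoma samples was hybridised to Illumina MouseWG-6 v2.0 bead arrays. The authors exported probe intensity and detection p-values with GenomeStudio 2011.1 and deposited a second table of normalized log2 values. Their methods name lumi for transformation and quantile normalization, ComBat for batch adjustment and limma (3.34.9 per the submitters' processing notes) for differential expression. Whether the deposited log2 values are batch-adjusted is not given in the sources. Starting from the deposited intensity of 45281 probes, each comparison was background-corrected and quantile-normalized with neqc (offset 16) in limma 3.58.1 (R 4.3.3), which replaced the authors' own transformation. Probes with a deposited detection p-value under 0.01 in at least 1 array were kept. lmFit and eBayes were run with Benjamini-Hochberg adjustment over all probes kept, at 0.01 for adenomas and 0.05 for crypts. The fit against Pygo1/2 DKO adenomas also held the 6 ApcMin arrays. A gene is given by its brightest probe, and levels are log2 values. Shares of an array's signal are of the deposited intensity summed over all 45281 probes, without background correction, with each listed gene counted by its brightest probe. Of 20824 probes in the value table, 17608 had 1 symbol, and 17585 were matched to RefSeq.

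Named genes were drawn from both targeted genes, the 15 genes that rose most and the 15 that fell most (1 probe per gene, detected in every array of at least 1 group, named), up to 4 members of smallest p in each of 42 lists, and detected members of the acinar, mast cell, sex-linked and villin.Cre lists, besides genes said to be chosen after their values were seen. Members and lists were chosen with earlier results of these data known. Scripts were tested on simulated data. Array number limits the precision. Batch 2 arrays entered only 1 alternative and the counts of arrays with a detected gene. Figures used Python 3.11.15 and matplotlib 3.10.9. Alternatives covered the filter, normalization, blocking, thresholds and left-out arrays.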

Additional observations from a re-analysis of the deposited data

Results flagged for a closer look

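In 14 of 180 genes checked, 1 ApcMin adenoma lay far from the other 5, a test that chance meets in about 1 group in 20. ApcMin 7 was highest for the acinar genes Clps (12.37), Amy2a5 (7.66) and Cela2a (6.83) and lowest for Notum (8.99) and Usp18 (8.11). ApcMin 2 was highest for the tryptases Tpsb2 (8.78) and Tpsab1 (6.81) and for Ctrb1 (4.92), and lowest for Foxp3 (8.76). ApcMin 9 was lowest for Tesc (8.36) and Gp2 (4.61), ApcMin 1 for Lrg1 (9.50), ApcMin 5 for Mttp (10.17) and ApcMin 3 for Timp1 (9.02).

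In 8 of the 180 genes checked, Bcl9/B9l DKO adenomas all lay on one side of ApcMin adenomas. In these genes, DKO crypts all lay on the other side of villin.Cre crypts. The genes checked were chosen with earlier results known, and not all were measured in crypts. The share over all genes was not counted. In adenomas alone, DKO arrays lay above all ApcMin arrays for 5.62% of named genes and below for 7.23%. The log2 differences in crypts and in adenomas were 1.44 and -1.54 for Isg15, 1.07 and -2.22 for Usp18, 1.02 and -2.15 for Igtp, 1.78 and -0.95 for Cd74, and 1.29 and -1.36 for H2-DMb1. They were 0.42 and -1.74 for Ifitm3, 0.48 and -1.58 for Il33, and -1.17 and 1.46 for Cyp2c55. None was called in crypts, and the difference between tissues was not tested.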

How the results depend on the processing

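For Bcl9/B9l DKO adenomas against ApcMin adenomas, 296 probes were called. The count was 127 without the detection filter, 176 from the deposited log2 values (73 higher and 103 lower, against 76 and 220), 25 with DKO adenomas 1 and 3 left out and 938 at an adjusted p of 0.05. It was 145 to 298 when each array was left out in turn, with 150 without DKO adenoma 2, 145 without DKO adenoma 3, 196 without ApcMin 2 and 188 without ApcMin 3. With the replicate block it was 0 (limma, 300 at an adjusted p of 0.05). For Bcl9/B9l DKO adenomas against Pygo1/2 DKO adenomas, the 207 calls became 123 without the filter, 120 from the deposited values, 39 with DKO adenomas 1 and 3 left out, 482 at an adjusted p of 0.05, 58 with the replicate block, and 131 to 238 with each array left out (136 without DKO adenoma 2 and 131 without DKO adenoma 3). For Bcl9/B9l DKO crypts against villin.Cre crypts, the 6 calls became 5 to 11, with 11 without villin.Cre crypt 3. Whether same-numbered arrays are pairs is not in the labels. Their deviations from the group means correlated at -0.141, 0.174 and -0.276 in DKO and ApcMin adenomas. These values cannot decide it, since the deviations of the 3 DKO arrays sum to 0 for each probe. The cause of the shifts in the counts was not tested. The other alternatives gave counts within 1.5 times those above. Of 82 called genes followed through the alternatives, most of them named in the text, 41 kept the call without each array. From the deposited log2 values 50 kept it, without the detection filter 34 and with the replicate block 0. None of the 82 changed sign in any alternative.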
